A study of Homo sapiens with 8 samples.

Results

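The potassium channel genes of CFPAC-1 cells were taken as all rows of the count table whose symbol begins with KCN and continues with letters and a closing number, which gave 95 of the 58870 genes in the table. By symbol, 40 of the 95 encode voltage-gated channel subunits, 16 inward rectifiers and 15 tandem-pore (K2P) leak channels. Another 8 encode channels of the calcium-activated and sodium-activated family, in which KCNU1 was placed by its symbol only, and 16 encode auxiliary subunits. The auxiliary proteins form no pore themselves, so the set holds 79 pore-type subunits and 16 accessory ones. CFPAC-1 is an established human pancreatic ductal adenocarcinoma line, and RNA was sequenced from 4 samples with an empty vector and 4 with an ADRA2A transgene. ADRA2A encodes the alpha-2A adrenergic receptor, which couples to the G protein Gi. Both groups were the same cell line, received no drug and were kept for 72 hours in IMDM with 10% FBS and 1% penicillin-streptomycin. The promoter that drove the transgene, and whether a group was a clone or a mixed population, were not given in the sources used here. The labels did not say whether the 4 samples of a group were separate cultures, so the p-values measure the spread between these samples, which may be technical.

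Potassium channels let potassium leave the cell and so set the membrane voltage. In secretory epithelia such as the pancreatic duct, this outward current keeps the cell interior negative and sustains the exit of chloride and bicarbonate on the opposite membrane. Gi-coupled receptors such as the alpha-2A receptor act on this family in a textbook way: the G protein beta and gamma subunits released by the receptor open inward rectifiers encoded by KCNJ3, KCNJ5, KCNJ6 and KCNJ9. The same receptors lower cyclic AMP, a messenger that regulates epithelial channels made of KCNQ1 and KCNE3.

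The libraries held between 14427040 and 17528910 estimated counts. ADRA2A had 0 counts in all 4 empty-vector libraries and 112, 142, 154 and 172 counts in the 4 ADRA2A libraries. Of 9 ductal and epithelial markers 8 passed the filter on low counts. The summed level of the 9 lay between 11810 and 12360 CPM (counts scaled to library size) with the empty vector and between 11830 and 12890 with the transgene. This sum hides opposite changes. At an edgeR adjusted p under 0.05, 4 of the 8 were higher with the transgene and 3 lower, while 42.7% of all genes tested passed either way. MUC1 was at 1.73-fold, KRT7 at 0.74-fold and SOX9 at 0.86-fold. CFTR, the chloride channel of duct cells, had between 4 and 20 counts per library and did not pass. Markers of other cell types were also listed at measurable levels for some genes. The 5 fibroblast markers summed to between 77.9 and 82.3 CPM against between 23.8 and 26.2, nearly all of it COL1A1. The 4 immune markers summed to between 30.4 and 38.7 CPM against between 82.2 and 97.6, nearly all of it LYZ, while the immune marker CD3E was at 0 and PTPRC had 10 counts over all libraries. The 3 endothelial markers summed to between 0.82 and 1.49 CPM against between 2.15 and 2.85, most of it PECAM1, while VWF had 3, 4, 4 and 4 counts against 0, 1, 0 and 1 and CDH5 had 1 count in all. The 4 neural markers summed to between 32.0 and 36.9 CPM against between 18.7 and 23.7, nearly all of it MAP2, with RBFOX3 at 0. The 4 acinar markers summed to at most 0.792 CPM and the 4 endocrine markers were at 0. The part of these markers in the results below was not tested. In such bulk libraries a change in the share of cells that express a gene cannot be told apart from a change in its RNA per cell.

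Of the 95 potassium channel genes, 63 had at least 1 count in at least 1 library and 32 had 0 counts in all 8. A count of 0 over the 127337529 counts of all libraries allows a level of up to 0.0236 CPM, for counting error only. The filter, which asks for enough counts in at least as many libraries as a group holds, was passed by 23 genes, and edgeR's quasi-likelihood test was applied to these. With the ADRA2A transgene 11 of the 23 were higher and 1 was lower at a Benjamini-Hochberg adjusted p-value under 0.05, and 11 passed neither way. Over all 14785 genes tested 42.7% were called, 21.6% higher and 21.1% lower. The median log2 fold change of the 23 was 0.26, against 0.00 over all genes tested, and their median absolute log2 fold change was 0.56 against 0.18. A gene that is high in 1 group and close to 0 in the other passes the filter more easily than one that is low in both, so these counts describe the 23 genes that passed and not the family. For 15 of the 23 genes no ADRA2A library lay within the range of the empty-vector libraries, against 39.2% of all genes tested. KCND1, KCNT2, KCNQ1, KCNH2 and KCNS3, 5 called members, changed by 1 or more on the log2 scale, as did 4.66% of all genes tested. These comparisons with all genes tested were not matched for abundance. At a mean of at least 50 counts 12 of the 23 members remained, against 12325 of the 14785 genes. KCNT2, KCNQ1, KCNH2 and KCNS3 were not among those 12. KCNQ1 had passed the filter only through its ADRA2A libraries.

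**Figure D1:**
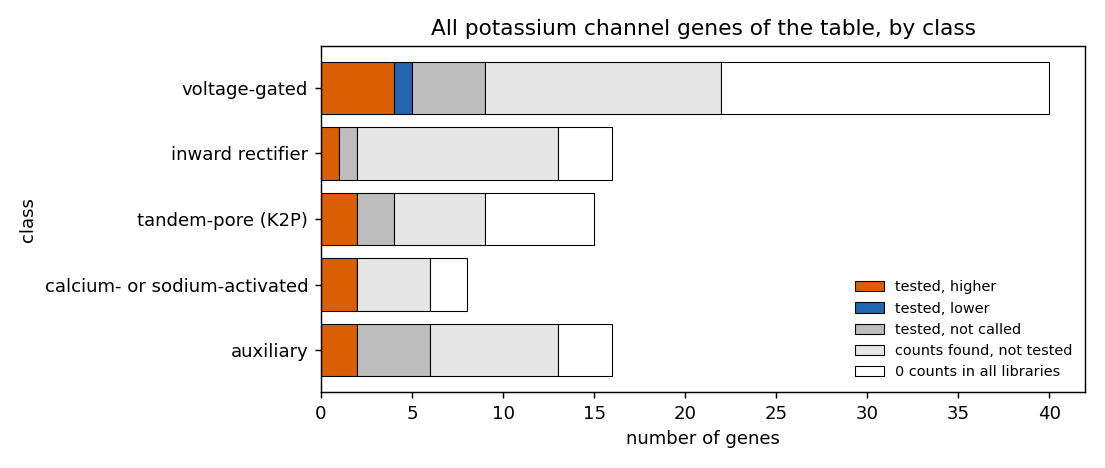
All 95 potassium channel genes by class, as the number of genes (horizontal axis). Colours separate the genes called higher (11) or lower (1) with the ADRA2A transgene, those tested and not called (11), those with counts that were not tested (40) and those at 0 in all 8 libraries (32).

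A few genes carried most of the family's RNA. The summed level of the 95 genes was 229, 235, 219 and 222 CPM in empty-vector replicates 1 to 4 and 297, 300, 307 and 316 CPM in ADRA2A replicates 1 to 4. KCNK5, KCNN4 and KCNK1 held between 57.7% and 60.8% of that sum with the empty vector and between 60.7% and 63.6% with the transgene. By class, the K2P genes summed to 108.4 ± 1.72 CPM with the empty vector and 155.6 ± 5.87 CPM with the transgene (SD, n = 4 each). The voltage-gated genes summed to 37.3 ± 1.16 and 54.9 ± 4.04 CPM, and the inward rectifiers to 4.78 ± 0.470 and 4.54 ± 0.546 CPM. Levels of different genes were compared per kilobase of the canonical GENCODE transcript. On that scale KCNN4 came first in the empty-vector cells with 23.9 ± 1.898 CPM per kilobase (SD, n = 4), followed by KCNK5 with 15.8 ± 0.669 and KCNK1 with 13.3 ± 0.561. In the ADRA2A cells the values were 27.5 ± 0.726 for KCNN4, 25.6 ± 0.846 for KCNK5 and 18.7 ± 1.24 for KCNK1. The order of the first pair depends on the transcript: per kilobase of all annotated exons together, KCNN4 had 15.0 and 17.2 CPM and KCNK5 had 15.8 and 25.6 CPM in the 2 groups.

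**Figure D2:**
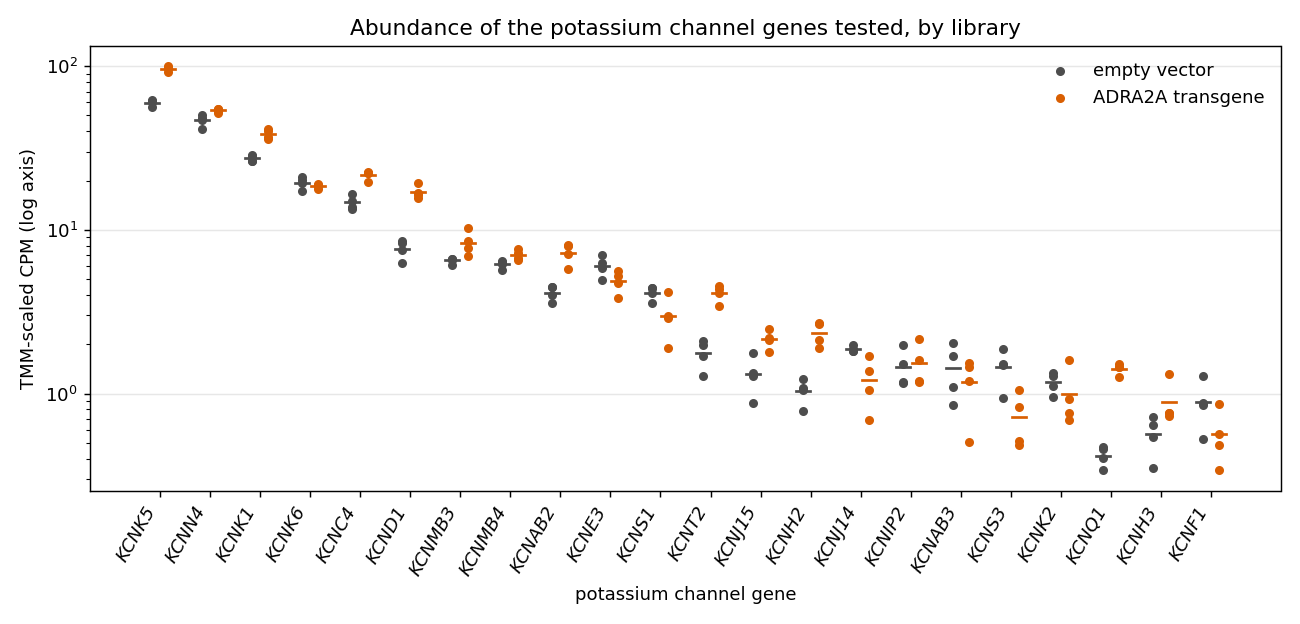
TMM-scaled CPM (vertical log axis) of 22 of the 23 potassium channel genes tested, with 1 point per library and a bar at the mean of the 4 libraries of each group. KCNK5, KCNN4 and KCNK1 lie highest, and the groups separate in genes such as KCNK5, KCND1 and KCNQ1.

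The 4 genes with the smallest p-values, KCNK5, KCND1, KCNK1 and KCNC4, all rose. For these 4 genes, chosen by p-value, the 250 bases before the start of each are shown from RefSeq (GRCh38.p14), 5′ to 3′ on the gene's own strand. Whether they are regulated together was not tested. The windows are chr6:39229476-39229725 for KCNK5 (minus strand), chrX:48971845-48972094 for KCND1 (minus strand), chr1:233613856-233614105 for KCNK1 (plus strand) and chr1:110210064-110210313 for KCNC4 (plus strand). Capitals mark every match, on either strand, of TGACG, the core of the cyclic AMP response element, and of GGGCGG, the GC box bound by SP1-type factors, and neighbouring GC boxes may overlap.
KCNK5: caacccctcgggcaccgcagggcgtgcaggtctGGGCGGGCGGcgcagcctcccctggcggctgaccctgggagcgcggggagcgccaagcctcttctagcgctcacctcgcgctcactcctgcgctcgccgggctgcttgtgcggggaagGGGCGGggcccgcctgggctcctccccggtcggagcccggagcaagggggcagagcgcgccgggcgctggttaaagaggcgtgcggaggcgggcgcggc
KCND1: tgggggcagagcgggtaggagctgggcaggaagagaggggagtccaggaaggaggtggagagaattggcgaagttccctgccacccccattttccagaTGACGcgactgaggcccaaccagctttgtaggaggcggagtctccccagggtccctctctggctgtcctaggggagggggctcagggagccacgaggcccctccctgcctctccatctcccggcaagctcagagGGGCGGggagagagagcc
KCNK1: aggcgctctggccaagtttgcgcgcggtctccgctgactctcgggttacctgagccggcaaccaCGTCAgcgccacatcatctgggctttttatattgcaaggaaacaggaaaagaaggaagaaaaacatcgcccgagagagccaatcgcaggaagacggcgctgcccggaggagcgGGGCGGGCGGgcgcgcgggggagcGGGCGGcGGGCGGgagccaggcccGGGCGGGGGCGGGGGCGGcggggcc
KCNC4: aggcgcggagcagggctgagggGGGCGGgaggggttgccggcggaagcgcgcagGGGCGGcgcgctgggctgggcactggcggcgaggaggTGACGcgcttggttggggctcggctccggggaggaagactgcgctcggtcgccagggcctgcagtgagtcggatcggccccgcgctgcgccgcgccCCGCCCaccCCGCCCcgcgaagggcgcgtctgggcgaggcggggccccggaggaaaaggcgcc
KCND1, KCNK1 and KCNC4 each held 1 match of TGACG, and KCNK5 held 0. GC boxes numbered 3 in KCNK5, 1 in KCND1, 7 in KCNK1 and 4 in KCNC4. Over all 35116 windows of this length in the table, 21.2% held TGACG and 42.6% held GGGCGG. Promoter windows were found for 71 of the 95 members, 17 of which had TGACG in at least 1 window, against 24.9% of all 27305 symbols. Among the 11 called members with a window, TGACG was found in KCNAB2, KCNC4, KCND1, KCNH2, KCNK1 and KCNN4, which are 6 of the 11. Of the 17 tested members with a window, 7 held it. The full 8-base element TGACGTCA was found in 0 of these 11 and in 2.03% of all symbols. TGANTCA, the site of AP-1 factors, was found in 2 of the 11, KCNJ15 and KCNMB3, and in 8.06% of all symbols. GGGCGG was found in 9 of the 11, in 13 of the 17 tested members with a window and in 46.2% of all symbols. These are matches of letters and do not show that a factor binds there. The shares over all symbols also cover genes that were not tested, and a share over all genes tested is not given. They are therefore not a like background for the called members.

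Among the K2P genes, which encode the leak channels that hold the resting voltage, KCNK5 and KCNK1 rose and KCNK6 and KCNK2 were not called. KCNK5 (ENSG00000164626.9; chromosome 6, 39188971 to 39229475, minus strand of GRCh38) encodes TASK-2, a channel that opens as the outside of the cell becomes alkaline. Its level was 60.6, 60.9, 56.1 and 61.7 CPM in the empty-vector libraries and 92.4, 96.9, 100.04 and 97.7 CPM in the ADRA2A libraries. Every ADRA2A library lay well above every empty-vector library. The log2 fold change of KCNK5 was 0.69 ± 0.05 (SE), a 1.62-fold rise (edgeR adjusted p = 2.19e-10). Here and for the other members, such folds are those fitted by edgeR and can differ slightly from the ratio of the mean CPM. KCNK1 (ENSG00000135750.14; chromosome 1, 233614106 to 233672514, plus strand), which encodes the weakly conducting channel TWIK-1, had 26.5, 28.3, 28.5 and 26.3 CPM against 36.8, 35.8, 40.1 and 41.1 CPM. Its groups did not overlap, and it rose 1.40-fold (log2 fold change 0.49 ± 0.06, SE; edgeR adjusted p = 2.33e-06).

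KCNK6, which encodes the related TWIK-2, had 20.9, 19.3, 20.3 and 17.2 CPM against 17.7, 18.5, 19.1 and 18.8 CPM. The groups of KCNK6 overlapped (log2 fold change -0.07 ± 0.08, SE; edgeR adjusted p = 0.513). KCNK2, the gene of the stretch-sensitive channel TREK-1, had between 10 and 28 counts per library (log2 fold change -0.22 ± 0.32, SE; edgeR adjusted p = 0.603). Differences between members were tested as log2 ratios of counts, each with 2 added, over the 8 libraries for 7 pairs chosen after their values were seen. The adjustment covers these 7 pairs and not their choice among all pairs of members. Here the smallest p that an exact two-sided permutation test can give is 0.0286. KCNK5 rose more than KCNK6 by 0.75 ± 0.08 (SE) and KCNK1 more than KCNK6 by 0.55 ± 0.07, and KCNK5 rose more than KCNK1 by 0.21 ± 0.07 (exact permutation test, p = 0.0286 and adjusted p = 0.04 over the 7 pairs for each). KCNK15 did not pass the filter. It had 0, 4, 0 and 4 counts with the empty vector and 7, 14, 6 and 6 with the transgene, groups that did not overlap, and in the fit with no filter its edgeR adjusted p was 0.0202. KCNK15 shares 20.1% of its exon bases with RIMS4 on the opposite strand, so its counts are uncertain. KCNK3, KCNK7, KCNK9 and KCNK17 had between 0 and 5 counts per library, and the other 6 K2P genes were at 0.

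The voltage-gated class, whose channels open on depolarisation, had 22 of 40 genes with counts, 9 tested, 4 higher and 1 lower. Over all genes tested 42.7% were called. KCND1 (ENSG00000102057.10; chromosome X, 48961378 to 48971844, minus strand) encodes the A-type channel Kv4.1. It had 6.27, 8.55, 7.49 and 8.31 CPM in the empty-vector libraries and 16.7, 16.4, 15.7 and 19.4 CPM in the ADRA2A libraries, so the lowest ADRA2A library stood above the highest empty-vector one. KCND1 rose 2.24-fold (log2 fold change 1.16 ± 0.11, SE; edgeR adjusted p = 3.29e-08). KCNIP2, which encodes a calcium-binding partner of Kv4 channels, had between 17 and 34 counts per library and overlapping groups (log2 fold change 0.09 ± 0.29, SE; edgeR adjusted p = 0.822). Leaving out empty-vector replicate 3 or ADRA2A replicate 4 turned the sign of KCNIP2, to -0.0026 and -0.11. In this pair, chosen after its values were seen, the change of KCND1 exceeded that of KCNIP2 by 1.085 ± 0.18 (log2, SE; exact permutation test, p = 0.0286, adjusted p = 0.04). The other Kv4 genes were KCND2 with between 0 and 3 counts per library and KCND3 at 0.

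KCNQ1 (ENSG00000053918.16; chromosome 11, 2444654 to 2849105, plus strand) encodes the slow epithelial and cardiac channel KvLQT1. It was low, with 8, 5, 7 and 7 counts in the empty-vector libraries and 21, 22, 22 and 24 counts in the ADRA2A libraries. The groups did not overlap on the CPM scale, and the means were 0.418 ± 0.059 and 1.42 ± 0.112 CPM (SD, n = 4 each). KCNQ1 rose 3.34-fold in the edgeR fit (log2 fold change 1.74 ± 0.31, SE; edgeR adjusted p = 0.000147). Within KCNQ1 lies the antisense RNA gene KCNQ1OT1, which shares 121 exon bases with it. The use of strand in counting was not stated, and KCNQ1OT1 had 2.43 ± 0.881 CPM against 2.27 ± 0.580 CPM (SD, n = 4 each; edgeR adjusted p = 0.791). KCNE3, whose product holds KCNQ1 channels open in epithelia, had 5.86, 7.06, 6.27 and 4.97 CPM against 5.19, 3.83, 5.61 and 4.74 CPM. Its groups overlapped (log2 fold change -0.31 ± 0.15, SE; edgeR adjusted p = 0.104). In this pair too, chosen after its values were seen, the change of KCNQ1 exceeded that of KCNE3 by 1.83 ± 0.23 (log2, SE; exact permutation test, p = 0.0286, adjusted p = 0.04). KCNE1, the cardiac partner of KCNQ1, had 1 count in 1 library.

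KCNH2 (ENSG00000055118.14; chromosome 7, 150944961 to 150978321, minus strand), the hERG channel gene, had 18, 16, 21 and 12 counts with the empty vector and 39, 32, 33 and 42 with the transgene. Its groups, with means of 1.04 ± 0.182 and 2.34 ± 0.402 CPM (SD, n = 4 each), did not overlap, and it rose 2.23-fold (log2 fold change 1.16 ± 0.26, SE; edgeR adjusted p = 0.00114). KCNC4 (ENSG00000116396.14; chromosome 1, 110210314 to 110283100, plus strand), which encodes the fast channel Kv3.4, had 15.0, 16.6, 13.8 and 13.4 CPM against 22.6, 22.4, 19.7 and 22.2 CPM. Its groups did not overlap either, and it rose 1.48-fold (log2 fold change 0.56 ± 0.08, SE; edgeR adjusted p = 1.63e-05). KCNH3 had between 6 and 23 counts per library (log2 fold change 0.68 ± 0.36, SE; edgeR adjusted p = 0.140).

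Also tested in this class, KCNS1, KCNS3 and KCNF1 encode modifier subunits that form no channel alone and join Kv2 channels. KCNS3 (ENSG00000170745.12; chromosome 2, 17877847 to 18361616, plus strand) was the only member called lower among those that passed the filter. It had 16, 22, 32 and 23 counts with the empty vector and 7, 16, 9 and 13 with the transgene, and the groups overlapped. Its mean went from 1.45 ± 0.381 to 0.719 ± 0.271 CPM (SD, n = 4 each; log2 fold change -1.01 ± 0.33, SE; edgeR adjusted p = 0.0188). The call of KCNS3 was lost without empty-vector replicate 3 (adjusted p = 0.0738), ADRA2A replicate 1 (0.0632) or ADRA2A replicate 3 (0.0667). KCNS1 had 4.10, 3.597, 4.41 and 4.39 CPM against 2.98, 4.16, 1.89 and 2.91 CPM (log2 fold change -0.48 ± 0.21, SE; edgeR adjusted p = 0.0719). KCNS1 passed the threshold with limma voom (adjusted p = 0.0405), with no filter (0.049) and without ADRA2A replicate 2 (0.0144). KCNF1 had between 6 and 19 counts per library (log2 fold change -0.64 ± 0.38, SE; edgeR adjusted p = 0.188). KCNQ3 and KCNQ5, genes of the slow M-type current, had between 0 and 7 counts per library and were not tested, and KCNH1 and KCNH5 were at 0. The Kv2 gene KCNB2 was at 0 in all 8 libraries. The changes of KCNS3 and KCNS1 differed by -0.42 ± 0.24 (log2, SE; exact permutation test, p = 0.143, adjusted p = 0.143).

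Calcium-activated and sodium-activated channels link potassium exit to ion signals inside the cell. KCNN4 (ENSG00000104783.13; chromosome 19, 43766533 to 43780976, minus strand) encodes KCa3.1, the intermediate-conductance channel that calcium-bound calmodulin opens. It had 48.1, 50.4, 41.6 and 46.9 CPM in the empty-vector libraries and 51.9, 54.8, 54.9 and 53.3 CPM in the ADRA2A libraries. The groups stood apart by a narrow margin, and the 1.15-fold rise was the smallest change among the called members (log2 fold change 0.20 ± 0.06, SE; edgeR adjusted p = 0.00615). KCNT2 (ENSG00000162687.17; chromosome 1, 196225779 to 196609225, minus strand), which encodes the sodium-activated channel Slick, had 22, 31, 34 and 26 counts against 66, 52, 72 and 69. With means of 1.77 ± 0.361 and 4.12 ± 0.495 CPM (SD, n = 4 each) and no overlap, KCNT2 rose 2.33-fold (log2 fold change 1.22 ± 0.21, SE; edgeR adjusted p = 7.50e-05). Its relatives KCNT1 and KCNU1 were at 0.

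The small-conductance genes KCNN1, KCNN2 and KCNN3 had between 0 and 11 counts per library and were not tested. KCNN1 had 3, 0, 2 and 3 counts against 4, 8, 5 and 5, and KCNN2 had 7, 7, 8 and 3 against 0, 2, 2 and 3. On the CPM scale neither pair of groups overlapped, and in the fit with no filter the edgeR adjusted p-values were 0.194 for KCNN1 and 0.0938 for KCNN2. KCNMA1, which encodes the large-conductance BK channel, had 0, 0, 0 and 2 counts with the empty vector and 3, 0, 2 and 1 with the transgene. Of the 4 genes of its beta subunits, KCNMB1 and KCNMB2 were at 0 and KCNMB3 and KCNMB4 were tested. KCNMB4 had 6.18 ± 0.341 against 7.03 ± 0.503 CPM (SD, n = 4 each; log2 fold change 0.18 ± 0.12, SE; edgeR adjusted p = 0.229). KCNMB3 (ENSG00000171121.16; chromosome 3, 179236691 to 179267002, minus strand) had 6.68, 6.58, 6.68 and 6.09 against 8.51, 6.93, 7.79 and 10.2 CPM (log2 fold change 0.36 ± 0.13, SE; edgeR adjusted p = 0.0265). The call of KCNMB3 was lost without empty-vector replicate 4 (adjusted p = 0.0688), ADRA2A replicate 1 (0.0549) or ADRA2A replicate 4 (0.127). KCNMB3 shares 38.0% of its exon bases with PIK3CA on the opposite strand, and its own level is therefore uncertain. PIK3CA had 50.1 ± 1.33 against 51.7 ± 3.46 CPM (SD, n = 4 each; edgeR adjusted p = 0.512).

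**Figure D3:**
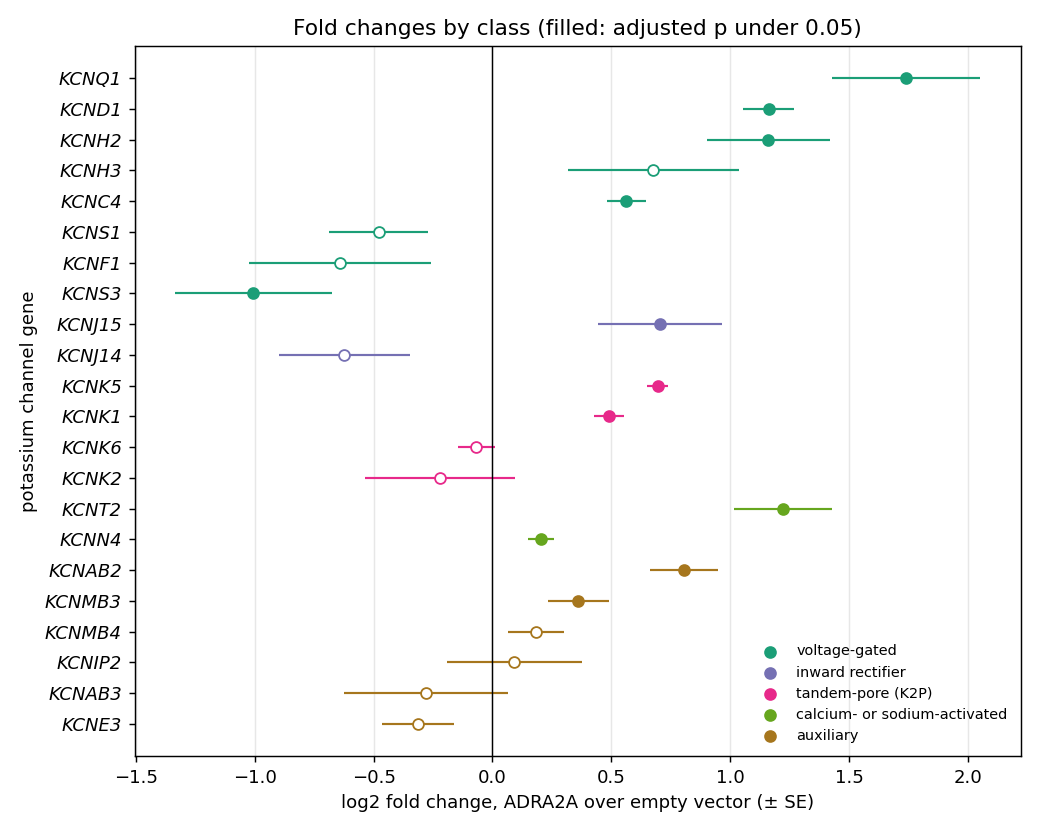
Log2 fold change with its SE (horizontal axis) of 22 of the 23 potassium channel genes tested, grouped and coloured by class, with filled points for an edgeR adjusted p under 0.05. Of the 12 filled points 11 lie above 0 and KCNS3 lies below.

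Inward rectifiers pass potassium more readily into the cell than out of it and stabilise the resting voltage. Of 16 such genes 13 had counts and 2 were tested. KCNJ15 (ENSG00000157551.19; chromosome 21, 38155549 to 38307357, plus strand), which encodes Kir4.2, had 15, 19, 23 and 27 counts against 26, 33, 37 and 39. On the CPM scale its groups were adjacent without overlapping, with 1.77 CPM in the highest empty-vector library and 1.80 in the lowest ADRA2A library (log2 fold change 0.71 ± 0.26, SE; edgeR adjusted p = 0.0345). The call of KCNJ15 was lost in 6 of the 8 fits that each left out 1 library, those without empty-vector replicate 1 (adjusted p = 0.115), 2 (0.0609) or 3 (0.06) and without ADRA2A replicate 2 (0.0618), 3 (0.0627) or 4 (0.0939). KCNJ14, the gene of Kir2.4, had 1.99, 1.83, 1.86 and 1.83 CPM against 0.692, 1.06, 1.37 and 1.71 CPM. Its groups did not overlap, and it did not pass the test (log2 fold change -0.62 ± 0.28, SE; edgeR adjusted p = 0.0759), except with limma voom (adjusted p = 0.0498) and without ADRA2A replicate 4 (0.0353).

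KCNJ2, which encodes the classical inward rectifier Kir2.1, stayed under the filter. It had 24, 10, 10 and 5 counts with the empty vector and 3, 1, 3 and 0 with the transgene, so every ADRA2A library was below every empty-vector one. Without the filter it had -2.67 ± 0.65 (log2 fold change, SE; edgeR adjusted p = 0.000275). The channels that Gi-coupled receptors open were close to the limit of detection in both groups. KCNJ3 had 1 count in 1 empty-vector library and 2 in 1 ADRA2A library, KCNJ5 had 1, 0, 1 and 0 counts against 0, 0, 3 and 0, KCNJ9 had 2 counts in 1 ADRA2A library, and KCNJ6 was at 0 in all 8. No difference in these 4 genes was detectable at this depth. KCNJ11, the pore gene of the ATP-sensitive channel, had between 0 and 11 counts per library, and KCNJ12 had between 2 and 11 counts. KCNJ12 is nearly identical to KCNJ18, which had 2 counts in all, so the division of reads between them is uncertain.

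Auxiliary subunits change the gating and delivery of the pores. Of 16 genes 6 were tested, 2 were higher and 0 lower, including KCNMB3 above, against 42.7% called over all genes tested. KCNAB2 (ENSG00000069424.14; chromosome 1, 5990927 to 6101193, plus strand) encodes Kv-beta-2, a cytoplasmic partner of Kv1 channels. It had 4.45, 4.48, 4.01 and 3.5998 CPM with the empty vector and 8.03, 5.81, 7.16 and 7.97 CPM with the transgene, without overlap, and rose 1.75-fold (log2 fold change 0.81 ± 0.14, SE; edgeR adjusted p = 0.000132). The Kv1 genes were at or near 0, with 3 counts of KCNA2 in 1 ADRA2A library and KCNA1, KCNA3, KCNA4, KCNA5, KCNA6, KCNA7 and KCNA10 at 0. KCNAB3 had between 8 and 35 counts per library (log2 fold change -0.28 ± 0.35, SE; edgeR adjusted p = 0.548). KCNIP3, another calcium-binding Kv4 partner, had 8, 3, 2 and 9 counts against 12, 8, 9 and 18 and was not tested. KCNE5 had 9, 2, 3 and 6 counts against 0, 0, 2 and 5 and was not tested either. Genes with exons shared with another gene on the opposite strand are uncertain here too, with 16.9% of exon bases in KCNE3, 23.5% in KCNJ14 and 13.1% in KCNIP2. Of the 40 members with counts that were not tested, 23 had fewer than 10 counts over all 8 libraries, and 4, KCNJ2, KCNK15, KCNN1 and KCNN2, had groups that did not overlap. Over all 10217 genes with counts that were under the filter, 3.6% had groups that did not overlap. The fit with no filter called KCNJ2 and KCNK15 among the 40, against 3.58% of those 10217 genes.

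Genes next to each other on a chromosome can shift together, so each tested member was set beside the 20 nearest tested genes, 10 on each side, with members left out. Of all genes tested, 21.6% were called higher and 21.1% lower. The neighbours of KCNMB3 had a median log2 fold change of 0.25, with 14 of the 20 called higher and 3 lower. For KCND1 the median was 0.20 (7 higher, 1 lower), for KCNAB2 0.20 (8 higher, 2 lower), for KCNC4 0.20 (10 higher, 0 lower), for KCNJ15 0.13 (7 higher, 0 lower) and for KCNH2 0.12 (9 higher, 3 lower). Around KCNS3 the median was 0.06 (8 higher, 3 lower), around KCNK5 0.05 (4 higher, 4 lower) and around KCNT2 0.03 (4 higher, 3 lower). It was 0.02 around KCNK1 (6 higher, 1 lower), -0.03 around KCNN4 (0 higher, 4 lower) and -0.10 around KCNQ1 (2 higher, 7 lower). The medians from KCNS3 to KCNQ1 were closer to the 0.00 of all genes tested. KCNMB3 stood 0.12 above its neighbours' median on the log2 scale, KCNC4 0.36, KCNK5 0.64, KCND1 0.96 and KCNQ1 1.84. The part of the neighbourhood in these changes was not tested.

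**Figure D4:**
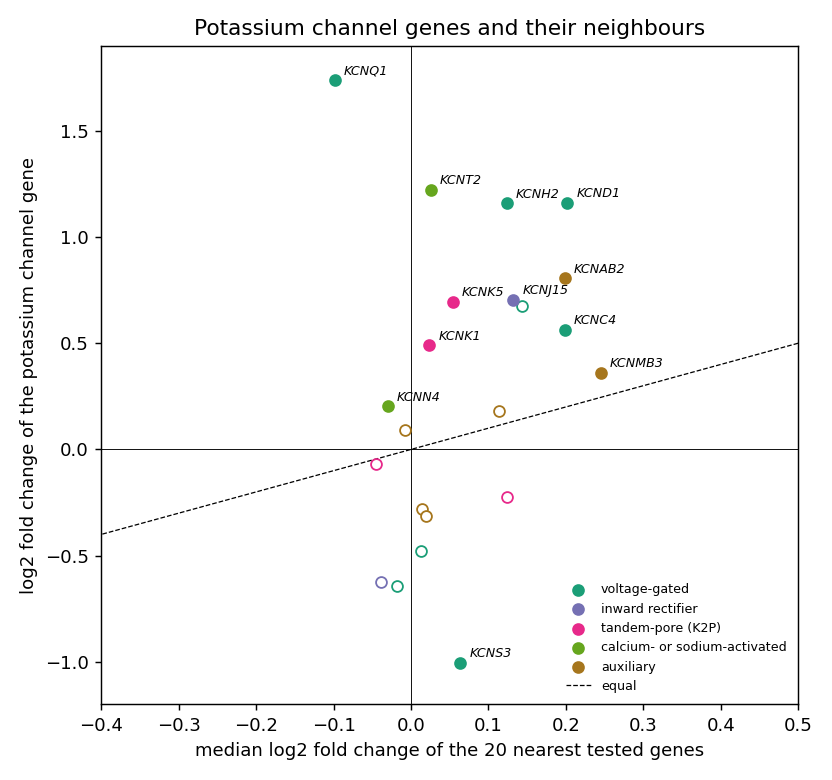
Log2 fold change of 22 of the 23 tested potassium channel genes (vertical axis) against the median log2 fold change of its 20 nearest tested genes (horizontal axis, on a wider scale), with a dashed line where both are equal and filled points for an edgeR adjusted p under 0.05. The neighbours' medians lie between -0.10 (KCNQ1) and 0.25 (KCNMB3). A median over 20 genes varies less than single genes do, so its narrower range is no contrast with the channel genes.

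Genes that work with potassium channels were described from 5 lists. Of 10 channel partners outside the 95 genes, only AMIGO1, a partner of Kv2 channels, was tested. AMIGO1 had 5.50 ± 0.730 against 7.11 ± 1.09 CPM (SD, n = 4 each) with overlapping groups (log2 fold change 0.37 ± 0.14, SE; edgeR adjusted p = 0.0415). With DESeq2 its adjusted p was 0.062, with upper quartile factors 0.0516, and over the fits without 1 library it lay between 0.0278 and 0.137, with the call lost without empty-vector replicate 2, 3 or 4 or ADRA2A replicate 3 or 4. KCNRG, which encodes a regulator of Kv1 channels, stayed under the filter, with 5, 4, 12 and 4 counts against 1, 0, 0 and 0. Its groups did not overlap, and without the filter its edgeR adjusted p was 0.00179, with the lower level in the ADRA2A libraries. ABCC8 and ABCC9, the sulfonylurea receptors that pair with KCNJ11, had 4 counts and 1 count in all. Of 18 genes of the sodium and proton pumps that bring potassium into the cell, and of their FXYD regulators, 8 were tested, 2 higher and 2 lower, with a median log2 fold change of 0.07. That is 50% called, against 42.7% of all genes tested. ATP1B1, a beta subunit of the sodium pump, rose from 290.4 ± 11.6 to 328.6 ± 3.80 CPM (log2 fold change 0.18 ± 0.03, SE; edgeR adjusted p = 0.000301), and FXYD6 rose by 0.57 ± 0.19 on the same scale (edgeR adjusted p = 0.0212). The log2 fold change was -0.14 ± 0.05 for ATP1B3 (edgeR adjusted p = 0.0366) and -0.13 ± 0.05 for FXYD5 (edgeR adjusted p = 0.0349). The called pump genes fell from 4 to 2 when empty-vector replicate 2, 3 or 4 or ADRA2A replicate 1, 3 or 4 was left out. FXYD6 lost the call without empty-vector replicate 3 or ADRA2A replicate 1. FXYD5 lost it without empty-vector replicate 2 (adjusted p = 0.104) or 4 (0.0882) or ADRA2A replicate 2 (0.0585), 3 (0.0944) or 4 (0.0627), with DESeq2 (0.0553) and with no filter (0.0586). ATP1B3, whose groups overlapped, lost it in 6 of the 8 fits without 1 library, those without empty-vector replicate 2 (0.0544), 3 (0.128) or 4 (0.0657) or ADRA2A replicate 1 (0.102), 3 (0.054) or 4 (0.131).

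The potassium-chloride cotransport list, which holds the carriers that couple potassium to chloride and the WNK kinases that control them, had 8 of 12 genes tested, 3 higher and 3 lower, with a median log2 fold change of -0.05. That is 75% called, against 42.7% of all genes tested. WNK4 changed most in the list. The kinase gene had 8.47 ± 0.958 CPM with the empty vector and 20.7 ± 1.16 CPM with the transgene (SD, n = 4 each), and the groups did not overlap (log2 fold change 1.29 ± 0.09, SE; edgeR adjusted p = 8.89e-10). SLC12A2, the sodium-potassium-chloride cotransporter NKCC1, had 315.7 ± 18.1 CPM against 371.3 ± 31.4 CPM with overlapping groups (log2 fold change 0.23 ± 0.05, SE; edgeR adjusted p = 0.000966), and SLC12A7 rose by 0.23 ± 0.05 (edgeR adjusted p = 0.000796). OXSR1, a kinase that WNKs activate, fell by 0.19 on the log2 scale (edgeR adjusted p = 0.00284). The log2 fold change of SLC12A4 was -0.19 ± 0.07 (edgeR adjusted p = 0.0335) and that of STK39 -0.16 ± 0.06 (edgeR adjusted p = 0.0402), and both missed the threshold with DESeq2 (adjusted p = 0.0599 and 0.0637). The call of SLC12A4 was also lost without empty-vector replicate 1 or 2 or ADRA2A replicate 1, 2 or 4 (adjusted p up to 0.139), and that of STK39 without empty-vector replicate 1, 2 or 4 or ADRA2A replicate 3 or 4 (up to 0.164).

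Calcium entry and calmodulin control KCNN4. Of 11 such genes 10 were tested, 3 higher and 3 lower, with a median log2 fold change of 0.07. That is 60% called, against 42.7% of all genes tested. CALM2, the most abundant calmodulin gene of the list, fell by 0.21 on the log2 scale (1094 ± 24.0 against 946 ± 27.1 CPM; SD, n = 4 each; edgeR adjusted p = 1.17e-05), while CALM3 rose by 0.11 (edgeR adjusted p = 0.0101). ORAI3, a store-operated calcium channel gene, rose by 0.33 ± 0.07 (edgeR adjusted p = 0.00106) and the low inositol trisphosphate receptor gene ITPR1 by 0.96 ± 0.29 (edgeR adjusted p = 0.0117). STIM1 fell by 0.15 on the log2 scale (edgeR adjusted p = 0.0168), and its adjusted p was 0.0541 without empty-vector replicate 3 and 0.0568 without ADRA2A replicate 2. Of 17 G protein beta and gamma genes 10 were tested, 2 higher and 2 lower, with a median log2 fold change of 0.00. This share of 40% called is close to the 42.7% of all genes tested. GNG11 had 25.3 ± 2.38 CPM with the empty vector and 39.3 ± 2.03 CPM with the transgene (SD, n = 4 each; edgeR adjusted p = 2.84e-07) and GNG12 from 155.2 ± 7.94 to 196.9 ± 3.39 CPM (edgeR adjusted p = 7.07e-07). GNG2 went from 18.3 ± 1.14 to 10.7 ± 1.06 CPM (edgeR adjusted p = 8.40e-07) and GNB4 from 41.5 ± 2.37 to 25.7 ± 3.03 CPM (edgeR adjusted p = 2.15e-07). The abundant beta subunit gene GNB1 was not called (log2 fold change -0.01 ± 0.03, SE; edgeR adjusted p = 0.867).

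**Figure D5:**
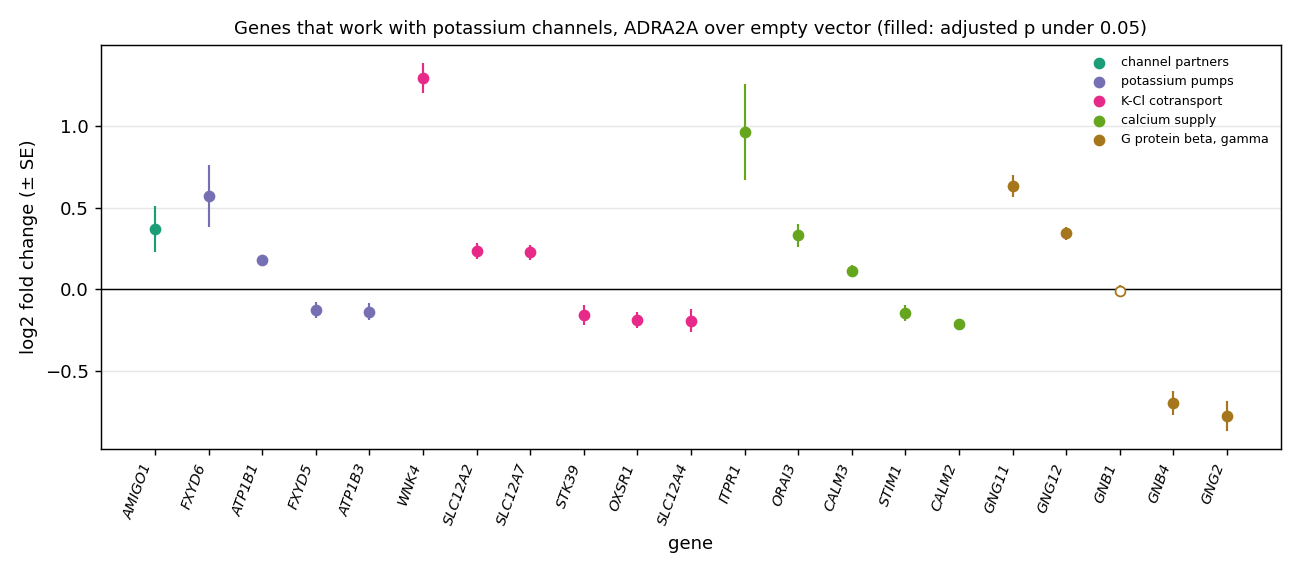
Log2 fold change with its SE (vertical axis) of the genes named from the 5 accompanying lists, coloured by list, with filled points for an edgeR adjusted p under 0.05. WNK4 lies highest at 1.29 and GNG2 lowest at -0.77.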

How the data were processed

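Per the labels' protocols, RNA of 8 CFPAC-1 samples was read on a NextSeq machine. The authors deposited estimated counts per gene, named as RSEM gene-level output, and the submitters' processing notes name cutadapt, STAR, RSEM, DESeq2 and the build hg38. Versions, annotation release and strand use were not given in the sources used here. All 8 columns were assigned through the sample titles. Counts were rounded to whole numbers, filtered with filterByExpr and scaled by TMM (factors 0.9938 to 1.0055), and groups were compared with edgeR 4.0.16 (glmQLFit, glmQLFTest; R 4.3.3), with Benjamini-Hochberg adjustment over all 14785 genes tested and a threshold of 0.05. SE is the absolute log2 fold change divided by the square root of F. CPM is TMM-scaled.

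Positions, exons and canonical transcripts came from GENCODE 44 (GRCh38), matched by Ensembl ID for 95 of 95 members. On simulated counts over 14785 genes the test recovered 85.1% of 1.5-fold and 97% of 2-fold changes. The simulation gave every gene the same dispersion (coefficient of variation 4.955%) and changed 200 genes drawn from all those tested. These shares therefore do not give the power for members with few counts. Replicate libraries differed by more than counting noise (chi-square per gene 2.12 to 4.59, where noise alone gives about 1). Alternatives were DESeq2 1.42.0, RLE and upper quartile factors, limma 3.58.1 voom, no filter, a mean of at least 50 counts, a replicate block, and each library left out in turn. Named were all called members, the 8 most abundant tested members not called, 10 members whatever their result, up to 3 genes per direction of each list, and ADRA2A. Others were named after their values were seen, and a few genes are not reported here. Members and lists were chosen with earlier results of these data known.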

Additional observations from a re-analysis of the deposited data

Results flagged for a closer look

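In 4 of 85 sets of 4 libraries, 1 library lay far from the other 3, by the gap to its nearest neighbour as a share of the range. Chance alone gives about 1 in 20 such sets. KCNC4 had 19.7 CPM in ADRA2A replicate 3, against 22.2 to 22.6 CPM in the other ADRA2A libraries. WNK4 had 19.0 CPM in the same library, against 21.1 to 21.5 CPM. KCNMB3 had 6.09 CPM in empty-vector replicate 4, against 6.58 to 6.68 CPM. KCNJ14 had 1.99 CPM in empty-vector replicate 1, against 1.83 to 1.86 CPM.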

How the results depend on the processing

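The number of potassium channel genes called was 12 of 23 tested, beside 6314 of all 14785 genes tested. It lay between 10 and 12 when each of the 8 libraries was left out in turn, beside 5703 to 6042 of all genes. At a mean of at least 50 counts, where fewer genes were tested, it was 7 (7 higher, 0 lower) of 12, beside 5835 of all 12325 genes. With limma voom it was 14 of 23, beside 6340 of 14785, and with no filter 15 of 63, beside 6550 of 25002. In each of the fits with limma voom and with no filter 3 were called lower. The genes called lower ranged from 0 to 2 and those called higher from 9 to 10 when 1 library was left out. With DESeq2, RLE factors or upper quartile factors the same 12 genes were called, in the same direction. The channel partner list had 0 called genes with DESeq2 and with upper quartile factors, 2 with no filter (AMIGO1 and KCNRG, in opposite directions), and 0 to 1 with 1 library left out, and the pump list had 2 to 4. KCNIP2, not called, ranged from -0.11 to 0.27 (log2) over the fits without 1 library. Of 621 comparisons of a named gene with an alternative fit, 566 kept their direction and side of the threshold, 48 lost the call, 5 gained it and 2 changed sign. With the replicate number as a block 12 members were called, the same 12 genes. Same-numbered libraries did not deviate together (correlations from -0.042 to 0.070), so the numbers were not used to pair them. With a prior count of 0.5 in place of 2, an alternative chosen after the data were seen, the 7 differences between members kept their direction and side of the threshold. Members under about 10 counts per library allow no statement on small differences.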
